A study of Drosophila melanogaster and Drosophila simulans with 11 samples.

Results

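The regions described here are the stretches of chromosome arms 2L and 3L with the highest MOF enrichment in wild type salivary glands, and there were 688 of them, 251 on 2L and 437 on 3L. They were chosen on the wild type MOF library itself. The enrichment ratio, the log2 of ChIP over input DNA at positions 10 bp apart, was smoothed by the median of 500 bp windows that held at least 25 values. Stretches in the highest 1.5% of the smoothed values of both arms were taken, gaps of 200 bp or less were bridged, and what then measured 200 bp or more was kept. The last 2 Mb with values at the centromere end of each arm was left out. Together the peaks covered 322400 bp, or 0.741% of the length of the arms used. Because the wild type MOF values chose these peaks, their height in that library is a description and is not tested.

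Salivary glands of last instar *D. melanogaster* larvae grown at 25°C were used, with 125 glands pooled for each sample, and ChIP was performed with antibodies against MSL1, MSL2 and MOF. The wild type strain was Oregon R, and the sex of the wild type larvae is not given in the sample labels. The *roX* mutants were males whose X carried the markers *y* and *w*, the *roX1[ex6]* allele, the deficiency *Df(1)roX2[52]* and the transgene *P[w+ 4Δ4.3]*, opposite a Y, and they were picked as non-GFP larvae from a balanced stock. They were thus mutant for both *roX* genes. Each antibody and genotype has 1 library, 5 in all (wild type MOF and MSL2, and *roX* mutant MOF, MSL1 and MSL2), so the spread between replicates is unknown and no test between genotypes was possible. The mutants served to ask where MSL proteins bind when these RNAs are missing.

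MOF is the histone acetyltransferase that places acetyl groups on lysine 16 of histone H4. In males it belongs to the MSL-complex, whose core proteins MSL1 and MSL2 and whose *roX* RNAs direct it to active genes along the X-chromosome, where transcription is raised to compensate for the single X. MOF is also part of a second assembly, the NSL complex, which lacks MSL2 and MSL1 and sits at promoters of active genes on every chromosome in both sexes, so that autosomal MOF need not be bound together with the other MSL proteins.

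The deposited libraries differed in how many positions carried a value. On 2L and 3L without the centromere ends, values were present at 45.0% of the positions in wild type MOF, 71.6% in wild type MSL2, 66.2% in *roX* mutant MOF, 39.7% in *roX* mutant MSL1 and 65.3% in *roX* mutant MSL2. Inside the peaks these shares were 81.9%, 79.3%, 80.4%, 47.3% and 76.6%. No read counts were analysed, and the depth on which a ratio rests is therefore not known. All libraries of 1 genotype were divided by the same input, and a low input at a position raises every ratio of that genotype there.

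The peaks were short and only moderately enriched. Their median length was 400 bp (95% interval 390 to 420), with quartiles of 320 and 520 bp and a range of 200 to 2050 bp, and 32 peaks were 1 kb or longer. The value of a peak was taken as the average of its 5 highest adjoining smoothed log2 ratios. Its median over the peaks was 0.93 (0.92 to 0.95), which is 1.91-fold over input. The highest value was 1.63, or 3.09-fold, and 200 peaks had a value of 1 or more. For comparison, the median smoothed wild type MOF value of both arms was 0.069. The intervals treat the peaks as independent, which peaks that lie close together need not be. Length and value were alike on both arms, with medians of 420 bp and 0.94 on 2L and of 400 bp and 0.93 on 3L. Longer peaks had higher values, with a rank correlation of 0.57 over the 688 peaks, and both measures come from the same smoothed profile.

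**Figure D1:**
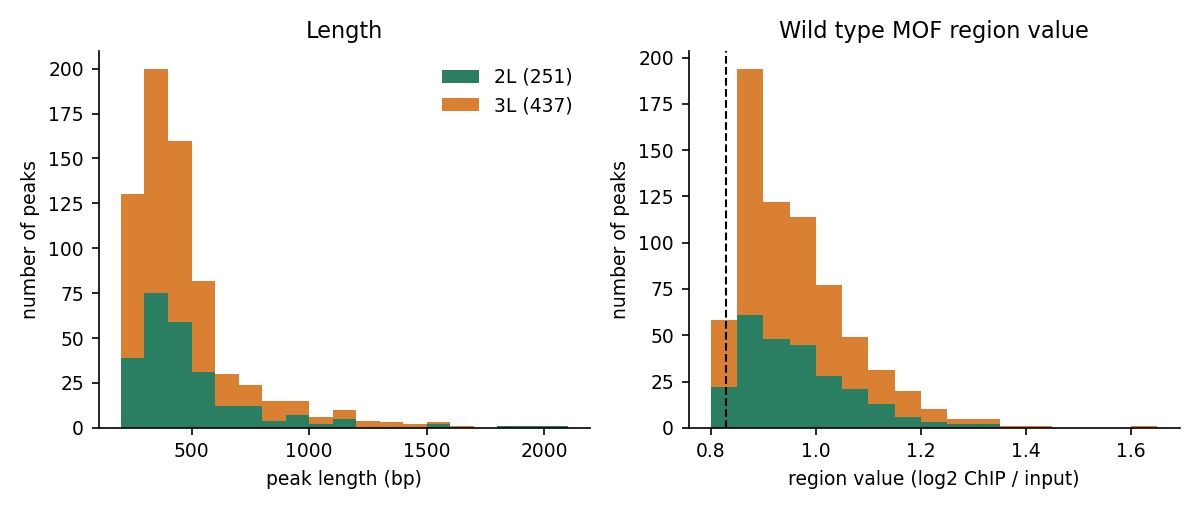
Number of peaks by length (left, bp) and by wild type MOF region value (right, log2 ChIP/input), with 2L and 3L stacked and the cutoff as a dashed line. Most peaks are shorter than 500 bp (490 of 688), and the values pile up just above the cutoff.

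The peaks grade into the rest of the arms without a step at the cutoff of 0.8295, a 1.78-fold enrichment. Of the 688 peaks, 172 had a value within 0.05 of it. The lowest members were 3L 9160320 to 9160560 with a value of 0.8299, 3L 19476050 to 19476290 with 0.8314 and 2L 5668400 to 5668670 with 0.8314. The closest stretches that stayed below it had values of 0.8290, 0.8288 and 0.8288 and lengths of 310, 310 and 250 bp. A further 197 stretches passed the cutoff but were too short, the highest of them 140 bp long with a smoothed value of 1.18. Coordinates are those of release 5 of the *D. melanogaster* genome, and the genes at the peaks were not assigned because no annotation of that release was used here.

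The peak with the highest value, 3L 5825000 to 5826470, was 1470 bp long with a region value of 1.63. In the other libraries its mean log2 ratio was 0.47 for wild type MSL2, 0.40 for *roX* mutant MOF, 0.29 for *roX* mutant MSL1 and, for MSL2 of the same genotype, 0.11. It was followed by 3L 5961100 to 5961510, which had a value of 1.41, with 0.51 for wild type MSL2, 0.50 for *roX* mutant MOF and 0.51 for *roX* mutant MSL1. Both lie in the same stretch of 3L and were raised in all 3 of these libraries over the medians of the arms, which were 0.19, -0.0019 and -0.036. The next, at 3L 17193550 to 17194020, had a value of 1.37 but only 0.075 for *roX* mutant MOF and 0.19 for *roX* mutant MSL1, beside 0.40 for wild type MSL2. After it, 3L 19650870 to 19651390 with a value of 1.34, had 0.48 for wild type MSL2 and 0.17 for *roX* mutant MOF. On 2L the highest peak, 601850 to 602250 with a value of 1.32, showed the opposite order, with 0.15 for wild type MSL2 against 0.74 for *roX* mutant MOF and 0.43 for *roX* mutant MSL1. A high MOF peak in wild type could thus have a high or a low ratio in any of the other libraries.

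Each of the 10 peaks with the highest values (1.29 to 1.63) was also compared with the same region moved along its arm by 10 to 100 kb. The wild type MSL2 mean was higher in the peak at 7 of the 10, the *roX* mutant MOF mean at 8 of the 10 and the *roX* mutant MSL1 mean at 5 of the 8 that could be read. For *roX* mutant MSL2 it was higher at 5 of the 9 that could be read. Over all peaks that could be compared, 81.6% were above their moved copies in wild type MSL2. In *roX* mutant MOF 66.2% were, in *roX* mutant MSL1 56.4% and in *roX* mutant MSL2 66.5%. With counts this small, the highest MOF peaks were not set apart from the rest in this respect.

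The longest peaks were concentrated in 1 part of 2L. The peak at 2L 4218030 to 4220080 was 2050 bp long with a value of 0.91, and its means were 0.48 for wild type MSL2, 0.23 for *roX* mutant MOF and -0.00022 for *roX* mutant MSL1. The peak at 2L 4483530 to 4485440, 1910 bp long with a value of 1.07, had 0.49 for wild type MSL2, 0.72 for *roX* mutant MOF and 0.30 for *roX* mutant MSL1. Those at 2L 4245340 to 4247140 (1800 bp) and 2L 4253460 to 4255040 (1580 bp) had *roX* mutant MOF means of 0.50 and 0.65. Only 1 of the 5 longest peaks, 3L 17329170 to 17330830 with 1660 bp, was on 3L, and its wild type MSL2 mean was 0.16. These 5 peaks show that length in wild type MOF did not fix the level of the other libraries either.

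The peaks were unevenly spaced. The median distance between the centres of neighbouring peaks was 6220 bp (5650 to 7220), whereas the mean distance was 64519 bp on 2L and 50678 bp on 3L. The closest neighbours were 590 bp apart on 2L, with centres at 4571040 and 4571630, and 580 bp apart on 3L, with centres at 923670 and 924250. At the other extreme, no peak was found over 4495650 bp of 2L between the centres 7640420 and 12136070, and over 2687730 bp of 3L between 11886790 and 14574520. In these stretches only 37.6% and 18.8% of the positions had a smoothed wild type MOF value, against 46.9% and 57.9% on the whole of 2L and 3L. Wild type MSL2 had a smoothed value at 84.8% and 78.7% of their positions. Their median wild type MOF values were -0.26 and -0.22. The long empty stretches were therefore both low in wild type MOF and thinly covered in that library, and peaks at positions without a smoothed value could not be found.

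Runs of peaks were defined, after the spacing had been seen, as peaks whose neighbouring centres were at most 50 kb apart. This gave 97 runs, of which 39 were a single peak, and the 13 runs of at least 10 peaks held 446 peaks (64.8%) on 2928570 bp, or 6.73% of the length of the arms. The run with the most peaks spanned 2L 4120610 to 4807520 and held 128, that is, 10.4% of its length was in peaks. It was followed by 3L 5776840 to 6155160 with 76 peaks, 3L 17060910 to 17341860 with 56, 3L 19355420 to 19546330 with 36 and 3L 9144030 to 9325980 with 28. Of the 10 peaks with the highest value, 4 were in the run of 76 and 2 in the run of 128. When both arms were divided into 175 windows of 250 kb, 91 windows held no peak and the 10 windows with the most peaks held 322 (46.8%), with 50 as the highest number in a window.

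The runs were broad stretches of raised wild type MOF, and differed in the other libraries. The median smoothed wild type MOF value lay between 0.37 and 0.62 in the 13 runs, and that of wild type MSL2 between 0.16 and 0.32. The arm medians of these libraries were 0.069 and 0.19. Wild type MSL2 was thus below its arm median in the runs at 3L 8886330 to 9083310 (0.184 against 0.186) and 3L 19098550 to 19272750 (0.165). For *roX* mutant MOF the runs ranged from -0.27 to 0.42 and for *roX* mutant MSL1 from -0.34 to 0.29. In the run of 128 peaks on 2L the medians were 0.56 for wild type MOF, 0.32 for wild type MSL2, 0.42 for *roX* mutant MOF and 0.24 for *roX* mutant MSL1. In the run of 36 peaks at 3L 19355420 to 19546330 wild type MOF was as high, at 0.54, and wild type MSL2 was 0.29, while *roX* mutant MOF was -0.12 and *roX* mutant MSL1 was -0.29. The run of 15 peaks at 3L 8886330 to 9083310 was the lowest in both *roX* mutant libraries, with -0.27 and -0.34. With 1 library per genotype, no difference between genotypes in a run could be tested.

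**Figure D2:**
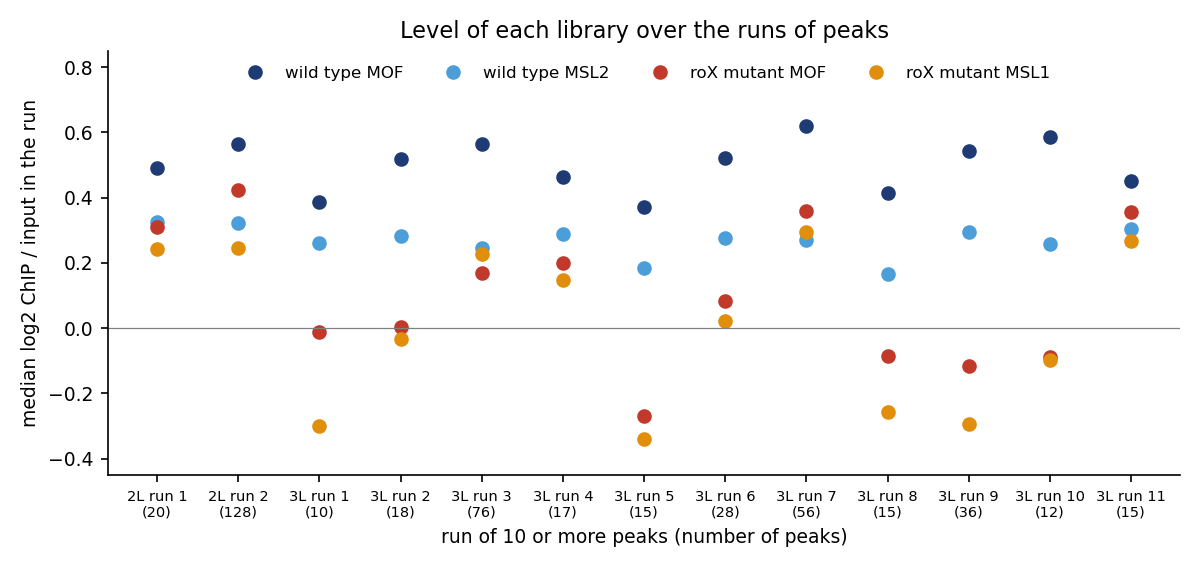
Median smoothed log2 ChIP/input of 4 libraries (colours) over each of the 13 runs with at least 10 peaks, in order along 2L and 3L, with the number of peaks in brackets. Wild type MOF and MSL2 are above 0 in every run, and both *roX* mutant libraries in some runs only. The baselines differ, with arm medians of 0.069 for wild type MOF and 0.19 for wild type MSL2. They are -0.0019 for *roX* mutant MOF and -0.036 for *roX* mutant MSL1, so a value above 0 does not mean the same in each library.

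Across the 250 kb windows, the median wild type MOF ratio rose and fell with the other libraries. Over the 173 windows with a value in each, the rank correlation was 0.62 with wild type MSL2, 0.52 with *roX* mutant MOF, 0.41 with *roX* mutant MSL1 and 0.55 with *roX* mutant MSL2. These are descriptions, since windows along an arm are not independent and share base composition and mappability, and the first pair also shares an input.

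**Figure D3:**
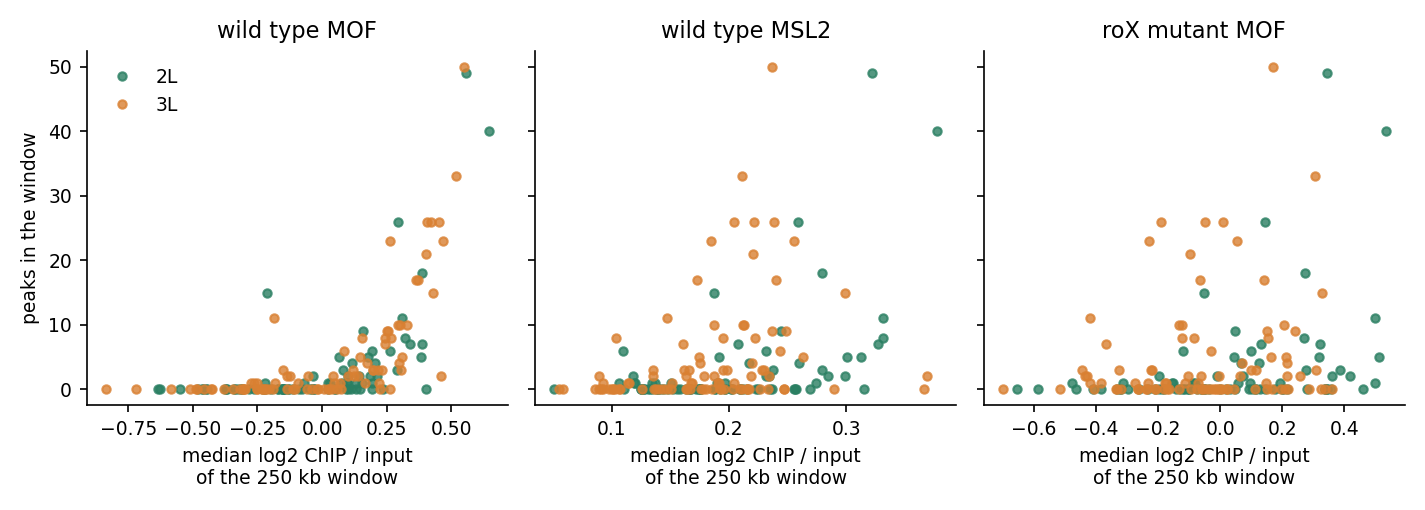
Number of peaks in each 250 kb window of 2L and 3L against the median log2 ChIP/input of the window in wild type MOF, wild type MSL2 and *roX* mutant MOF. The 10 windows with the most peaks have wild type MOF medians of 0.26 to 0.64, whereas their *roX* mutant MOF medians run from -0.23 to 0.53.

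To ask what the other libraries show at the peaks, the mean log2 ratio in each peak was compared with the same region moved along its arm by 20 fixed distances, 10 to 100 kb to either side, leaving out places that touched another peak. The difference between a peak and the median of its moved copies is called its excess below. A peak was read if it held at least 10 values in the library.

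Wild type MSL2 was raised at most peaks. Its median was 0.40 (0.39 to 0.42) at the 669 peaks that could be read, with a range of -0.25 to 0.96, against 0.24 at the moved regions and 0.19 on the arms as a whole. The median excess was 0.17 (0.15 to 0.19), and 546 of 669 peaks (81.6%) were above their moved copies. None of the 20 distances came near the peaks, with medians of 0.20 to 0.26. The excess was 0.14 (0.12 to 0.17) on 2L and 0.19 (0.16 to 0.21) on 3L. This library shares its input with the one that chose the peaks, so that binding of MSL2 and a low input at the peaks cannot be told apart.

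The size of the MSL2 ratio was nevertheless modest and variable from peak to peak. A position was called high where its smoothed value was in the highest 5% of that library on both arms, a call that 5.02% of all positions read in both wild type libraries reached. At the peak centres 152 of 620 (24.5%, exact 95% interval 21.2 to 28.1) were high, against 6.29% of the centres of the moved regions. The highest MSL2 means were 0.96 at 3L 8379790 to 8380000, 0.91 at 3L 3695770 to 3696190 and 0.86 at 2L 591600 to 592110. The lowest were -0.25 at 3L 19247200 to 19248330, a peak of 1130 bp with a MOF value of 1.22, -0.15 at 3L 6095720 to 6096040 and -0.12 at 2L 13223480 to 13223810. The first of these high peaks had a MOF value of only 0.85. Height in MOF did not order the peaks in MSL2 within the narrow range of MOF values that the cutoff left (quartiles 0.88 and 1.02). Because the range was cut, this does not show how the 2 libraries go together on the rest of the arms. Over the 669 peaks the rank correlation of the 2 values was 0.048. When the peaks were divided by MOF value into 4 groups of equal size, the MSL2 medians were between 0.39 and 0.42.

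In *roX* mutants, MOF was slightly raised over the surroundings of the peaks. The median of *roX* mutant MOF was 0.24 (0.21 to 0.26) at 665 peaks, with a range of -0.60 to 1.11, against 0.16 at the moved regions and -0.0019 on the arms. The excess was 0.085 (0.063 to 0.10), and 440 of 665 peaks (66.2%) were above their moved copies. The medians of the moved regions fell with distance, from 0.22 and 0.19 at 10 kb to either side to 0.033 and 0.075 at 100 kb. The median over all peaks thus sat on a broad rise of *roX* mutant MOF, and most of its level over the arm was also present 10 kb away. The rise was not shared by all peaks. Median smoothed values of the 13 runs of at least 10 peaks ranged from -0.27 to 0.42. The run of 36 peaks at 3L 19355420 to 19546330, with -0.12, was below the arm median. At the 35 single peaks that could be read, the median of the peak means was 0.029.

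Peaks high in *roX* mutant MOF were more frequent on 2L than on 3L, and 48 of the 90 lay in 1 run. Of all positions read in both libraries 3.69% were high in *roX* mutant MOF, and at the peak centres 90 of 620 (14.5%, 11.8 to 17.5) were, against 8.22% of the moved centres. On 2L 71 of 243 (29.2%, 23.6 to 35.4) were high, where 6.21% of the positions of that arm and 18.3% of its moved centres were. On 3L 19 of 377 (5.04%, 3.06 to 7.76) were high, where 1.73% of the positions and 3.09% of the moved centres were. The interval on 3L includes the share of its moved centres. The run of 128 peaks at 2L 4120610 to 4807520 alone held 48 of the 90, and without it, a choice made after seeing the data, 42 of 492 (8.54%, 6.22 to 11.4) were high, against 4.67% of the moved centres. The median *roX* mutant MOF excess was 0.032 (-0.010 to 0.12) in this run and 0.090 (0.068 to 0.11) at all other peaks. The highest means were 1.11 at 2L 4796440 to 4796940 and 0.98 at 2L 4634000 to 4634290, both in this run, followed by 0.96 at 2L 5710860 to 5711170. The lowest were -0.60 at 3L 8487560 to 8487780, -0.52 at 3L 8209590 to 8210070 and -0.50 at 2L 537540 to 537920. At these last 3 peaks the wild type MSL2 means were 0.50, 0.62 and 0.76, well above its arm median of 0.19.

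For MSL1, only the *roX* mutant library was analysed, and its values were sparser. Its median was 0.16 (0.14 to 0.21) at the 484 peaks that could be read, against 0.13 at the moved regions and -0.036 on the arms. The excess was 0.053 (0.012 to 0.082), and 273 of 484 peaks (56.4%) were above their moved copies. Its interval included 0 under 3 of 18 alternatives, which gave 0.048 (-0.0050 to 0.095) on 2L alone, 0.051 (-0.017 to 0.10) with 40 values needed in a window and 0.11 (-0.065 to 0.18) with 1 peak per run. At the centres 43 of 357 peaks (12.0%, 8.86 to 15.9) were high, where 3.58% of all positions and 7.28% of the moved centres were. The highest MSL1 means, 0.94 at 2L 15326360 to 15326660, 0.93 at 3L 17263670 to 17264300 and 0.92 at 2L 4634000 to 4634290, were all at peaks with raised *roX* mutant MOF, with means of 0.69, 0.83 and 0.98. The lowest were -0.80 at 3L 20077840 to 20078150, -0.71 at 3L 19515580 to 19516040 and -0.70 at 3L 20289890 to 20290240.

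The *roX* mutant MSL2 library had a median of 0.20 at 666 peaks, against 0.099 at the moved regions, with an excess of 0.097 (0.074 to 0.13). At the centres 87 of 621 (14.0%) were high, where 3.44% of all positions and 6.69% of the moved centres were. MSL2 was thus raised over the moved regions in both genotypes. The order of the 2 excesses depended on the setting. It was 0.17 in wild type against 0.097 in *roX* mutants here, 0.20 in both with moves of 200 to 1000 kb, and 0.11 against 0.12 with 2000 bp windows.

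**Figure D4:**
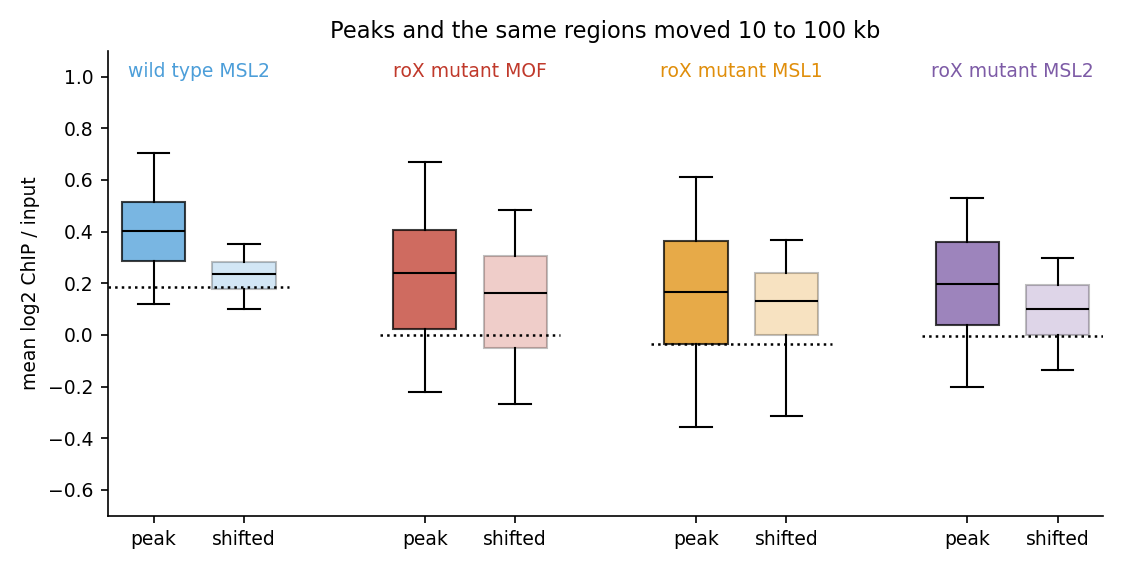
Mean log2 ChIP/input in the peaks (dark boxes) and in the same regions moved by 10 to 100 kb (pale boxes, the median of the moved copies of each peak) for 4 libraries. Boxes give the quartiles with the median as a line, whiskers the 5th and 95th percentiles, and dotted lines the median of both arms. Peaks and moved regions overlap in every library, and the medians lie farthest apart for wild type MSL2 (0.40 against 0.24).

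Moved regions lie at least 10 kb away, and the profiles around the peaks were therefore also examined at the scale of the peaks themselves, a comparison added after seeing the data. In wild type MOF the mean was 0.49 at distances of 1 to 5 kb from the centre, 0.43 at 10 to 50 kb and 0.26 at 100 to 200 kb, so that narrow summits stood on a base more than 100 kb wide. Wild type MSL2 had a narrow summit at the same place, with 0.38 at the centre and 0.28 at 1 to 5 kb, on a lower base of 0.25 and 0.22. In *roX* mutant MOF the values at the centre and next to it were close, with 0.23 at the centre, 0.22 at 1 to 5 kb, 0.16 at 10 to 50 kb and 0.024 at 100 to 200 kb. In *roX* mutant MSL1 the same 4 distances gave 0.17, 0.16, 0.081 and -0.018, and in *roX* mutant MSL2 0.19, 0.16, 0.12 and 0.028, so that the latter had a small rise at the centre. The mean over all peaks thus fell outwards over 100 to 200 kb in each of the 5 libraries.

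Each peak was next compared with flanks 1 to 3 kb from its own edges. Unlike the moved regions, the flanks could hold other peaks. Neighbouring centres were up to 2000 bp apart in 50 of 250 cases on 2L and 69 of 436 on 3L. The wild type MOF median was 0.51 at the flanks, against 0.37 at the moved regions. The part of this in the differences was not tested. The median peak was higher than its flanks by 0.11 (0.10 to 0.13) in wild type MSL2, and 496 of 666 peaks were above their flanks. In *roX* mutant MOF the difference was 0.0021 (-0.018 to 0.022), with 336 of 664 above. It was -0.011 (-0.044 to 0.026) in *roX* mutant MSL1, with 228 of 468 above, and 0.023 (-0.0036 to 0.042) in *roX* mutant MSL2, with 352 of 665 above. The interval thus included 0 in each of the 3 *roX* mutant libraries, and it did so for MOF and MSL1 under all 15 alternatives tried. For *roX* mutant MSL2 it lay above 0 under 5 of the 15, which gave 0.028 (0.0079 to 0.046) with flanks of 3 to 5 kb, 0.029 (0.016 to 0.046) with the highest 3% called, 0.022 (0.0046 to 0.048) with a running mean, 0.030 (0.0012 to 0.049) with gaps up to 500 bp joined and 0.048 (0.017 to 0.16) with 1 peak per run. Among the 169 peaks read in the group with the highest MOF values the *roX* mutant MOF difference was 0.0042 (-0.022 to 0.043), and among those of at least 500 bp it was -0.015 (-0.057 to 0.0042).

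**Figure D5:**
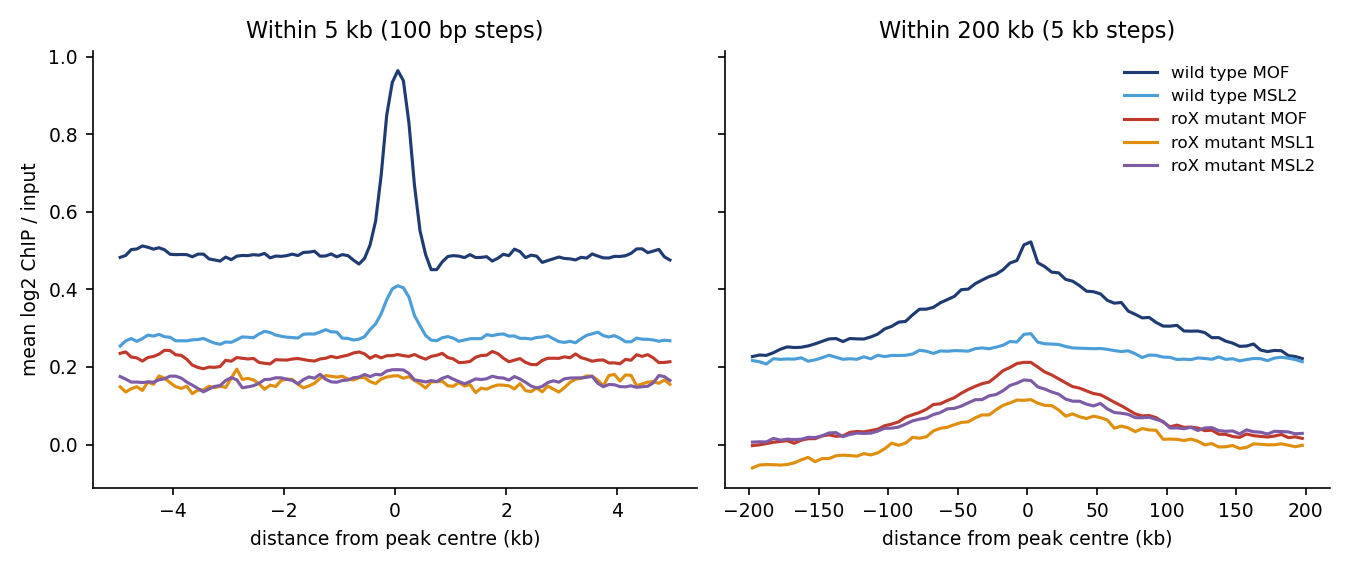
Mean log2 ChIP/input of 5 libraries around the peak centres, within 5 kb in steps of 100 bp (left) and within 200 kb in steps of 5 kb (right). Both wild type libraries have a summit of under 1 kb, whereas *roX* mutant MOF and MSL1 show no clear summit within 5 kb, *roX* mutant MSL2 is slightly raised at the centre (0.19 against 0.16 at 1 to 5 kb), and all 3 have a much wider rise.

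The same comparison was made in the other direction, with regions chosen by the same rule in each of the other libraries. At the regions chosen in *roX* mutant MOF, wild type MOF exceeded its flanks by 0.033 (0.0065 to 0.059), with 343 of 623 above, whereas *roX* mutant MSL1 and MSL2 exceeded theirs by 0.13 and 0.15. At the regions chosen in wild type MSL2, wild type MOF exceeded its flanks by 0.22 (0.20 to 0.24), with 693 of 865 above, and *roX* mutant MOF by 0.014 (-0.0014 to 0.025). For MSL2, small differences were also found across genotypes. At the regions chosen in wild type MSL2, *roX* mutant MSL2 exceeded its flanks by 0.058 (0.038 to 0.081), with 663 of 1109 above, and at the regions chosen in *roX* mutant MSL2, wild type MSL2 exceeded its flanks by 0.035 (0.019 to 0.047), with 538 of 928 above. With the wild type MOF peaks included, the differences lay between 0.11 and 0.22 where both libraries were of 1 genotype and between -0.011 and 0.058 where they were not. Genotype and input cannot be told apart in these comparisons, since each genotype has its own input.

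Few peaks were regions of another library as well. The rule gave 1159 regions in wild type MSL2, and 89 of the 688 MOF peaks (12.9%) overlapped 87 of them (7.51%), whereas between 1.74% and 4.75% of the peaks overlapped one after being moved. In *roX* mutant MOF there were 969 regions, and 65 peaks (9.45%) overlapped 65 of them (6.71%), against 3.15% to 7.95% after being moved. In *roX* mutant MSL1 there were 571, and 24 peaks (3.49%) overlapped 24 of them (4.20%), against 1.28% to 3.03%. No region of these 3 libraries overlapped 533 of the peaks (77.5%), whereas 87.5% to 93.2% of the moved peaks were free of them. The shares of peaks count all 688, also those with too few values in a library to form a region there. Only 669, 665 and 484 peaks could be read in wild type MSL2, *roX* mutant MOF and *roX* mutant MSL1. Of the regions of these libraries, 879, 639 and 330 could be read in wild type MOF. The only peak that overlapped regions of all 3 was 2L 4796440 to 4796940, in the run of 128, with a MOF value of 1.05 and means of 0.62 for wild type MSL2, 1.11 for *roX* mutant MOF and 0.71 for *roX* mutant MSL1. Both *roX* mutant MOF and *roX* mutant MSL1 regions were found at 8 peaks, 6 of them on 2L. The share of moved peaks that overlap regions of more than 1 library is not given here, so these counts have no background beside them. The arms also differed around the peaks, since 18.3% of the moved centres of 2L were high in *roX* mutant MOF, against 3.09% on 3L.

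High calls at the centres gave a similar picture. Of the 324 peaks with a smoothed value in wild type MSL2, *roX* mutant MOF and *roX* mutant MSL1, 189 (58.3%) were high in none of them, 105 (32.4%) in 1, 27 (8.33%) in 2 and 3 (0.926%) in all of them. Of all positions read in these libraries and in wild type MOF, 89.5% were high in none, 9.3% in 1, 1.11% in 2 and 0.131% in all 3. At the moved centres these shares were 81.3%, 15.7%, 2.70% and 0.235%. High calls were thus more frequent at the peaks than at the moved centres, as in the single libraries. Of the 105, 56 were high in wild type MSL2 alone, 32 in *roX* mutant MOF alone and 17 in *roX* mutant MSL1 alone. Across the peaks, the rank correlation was 0.52 between *roX* mutant MOF and MSL1 (482 peaks), which share an input, and 0.019 between wild type MSL2 and *roX* mutant MOF (651 peaks). The order of the peaks in wild type MSL2 thus had little to do with their order in *roX* mutant MOF.

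The position of a peak within or outside a run went with similar wild type MSL2 medians, while the medians of the *roX* mutant libraries were lower at single peaks. The wild type MSL2 medians were 0.40 in the 446 peaks of runs of at least 10, 0.42 in the 203 peaks of runs of 2 to 9 and 0.42 in the 39 single peaks. The wild type MSL2 excess was nevertheless 0.16 (0.13 to 0.18), 0.19 (0.15 to 0.24) and 0.27 (0.14 to 0.35) in these 3 sets, and 20.6% (16.7 to 24.9), 31.7% (25.1 to 38.9) and 30.6% (16.3 to 48.1) of their centres were high. The median excess in wild type MSL2 was thus larger outside the large runs, but the intervals overlap and the medians at the peaks were alike. Of all positions, 5.02% were high in wild type MSL2, and the share of moved centres is not given for each set. For *roX* mutant MOF the corresponding medians were 0.25, 0.24 and 0.029, and for *roX* mutant MSL1 they were 0.21, 0.12 and 0.030. Only 35 and 20 of the single peaks could be read in the latter 2 libraries.

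The X-chromosome, where the MSL-complex is abundant, gives a scale for these values. With the cutoff of the autosomal peaks, 59.7% of the smoothed positions of X passed it. On X, 663 regions were found, with a median length of 1960 bp and a median value of 1.44. On 2L and 3L the rule itself fixes the share of positions past the cutoff at 1.5%. On 3R, an autosomal arm that did not set the cutoff, 7.86% of the smoothed positions passed it. For a comparison over the same range of MOF values, the 370 regions of X whose value lay in the range of the autosomal peaks were taken, a choice made after seeing the data. MOF enrichment was still not equal. The median value was 1.05 at these X regions against 0.93 at the autosomal peaks, and the median length 600 bp against 400 bp. The part of this in the comparisons that follow was not tested. At these X regions the wild type MSL2 median was 0.52 (0.48 to 0.55), against 0.40 (0.39 to 0.42) at the autosomal peaks. The *roX* mutant MSL1 median was 0.55 (0.50 to 0.59) at 163 of these X regions, against 0.16 (0.14 to 0.21) at the autosomal peaks, and the intervals did not overlap. For *roX* mutant MOF the order was reversed at these regions, with 0.12 (0.070 to 0.17) at 111 X regions and 0.24 (0.21 to 0.26) at the autosomal peaks. At the 369 of all 663 X regions that could be read it was 0.17 (0.14 to 0.21). The median smoothed *roX* mutant MOF value was nevertheless higher on X, at 0.27, than on 2L and 3L, at -0.0019. This library was sparse on X, with 182016 values there against 1505297 on 2L. X and the autosomal arms differ in copy number in males and in the share of positions with a value (21.5% smoothed in wild type MOF on X against 52.6% on 2L and 3L), and their part in these differences was not tested.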

How the data were processed

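Per the study's methods, AB SOLiD reads with a unique match were placed on release 5 of the fly genome, and the authors deposited log2 enrichment ratios, ChIP over the input from the same genotype, at 10 bp steps wherever one could be formed. How ChIP and input were scaled is given only by reference, and the rule that left positions without a value is not given in the sources used here, so that sparse or poorly mappable positions may be missing. From the deposited log2 values of 5 libraries, peaks were called with the smoothing of the methods (500 bp, 25 values), 2 arms setting the cutoff. No test was made, since there is 1 library per group. Intervals for medians are exact order-statistic intervals at 95% and those for shares exact binomial ones. They cover variation between peaks and not between libraries. The peaks named in the text are the 10 with the highest value, the 5 longest, the 3 highest and lowest in each other library, the closest and farthest neighbours and those next to the cutoff. The members, lists and comparisons were chosen with earlier results of these data known. The procedure was tested on simulated data. The simulated peaks were longer, higher and more widely spaced than the median peak here, so the test does not show how well weak or crowded peaks are recovered. The *D. simulans* libraries and arm 2R were not used here, and 3R was read only for its share of positions past the cutoff. Python 3.11.15, numpy 2.4.6, scipy 1.17.1 and matplotlib 3.10.9 were used.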

Additional observations from a re-analysis of the deposited data

How the results depend on the processing

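The number of peaks was 1299 with the highest 3% called, 255 with 2000 bp windows, 257 with 40 values needed in a window and 198 with a minimum length of 500 bp. The wild type MSL2 excess over moved regions was 0.11 with 2000 bp windows, 0.20 with 40 values, 0.20 with moves of 200 to 1000 kb, 0.14 on 2L and 0.21 with 1 peak per run, and its difference from flanks was 0.057, 0.10 and 0.16 with 2000 bp windows, on 2L and with 1 peak per run. The *roX* mutant MOF excess was 0.11 with 2000 bp windows, 0.22 with the far moves and 0.12 with 1 peak per run, and its difference from flanks was -0.023 with 40 values and 0.023 with 1 peak per run. For *roX* mutant MSL1 the excess was 0.21 with the far moves and 0.11 with 1 peak per run, and the difference from flanks was 0.036 with 2000 bp windows. The larger excess with far moves goes with the width of the rise around the peaks.

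The share of peaks high in wild type MSL2 was 29.0% with 40 values, where 4.92% of all positions were high. It was 9.68% when the highest 1.5% counted as high (1.51% of all positions and 2.03% of the moved centres). When the highest value in the peak was used it was 35.2% (12.1% of the moved regions). With 1 peak per run it was 28.2% (5.02% of all positions). The share high in *roX* mutant MOF was 20.2% with 2000 bp windows (3.17% of all positions). It was 5.48% when the highest 1.5% counted as high (1.16% of positions and 2.75% of moved centres). With the highest value in the peak it was 22.2% (14.2% of moved regions). With each arm's own threshold it was 21.4% on 2L (4.13% of positions) and 10.9% on 3L (3.52%). It was 9.76% with 1 peak per run and 8.54% without the run of 128 peaks, where 3.69% of positions were high. For *roX* mutant MSL1 it was 15.9% with 2000 bp windows (3.26% of positions). It was 3.64% (1.95 to 6.15) when the highest 1.5% counted as high (1.08% of positions and 1.85% of moved centres). With the highest value in the peak it was 20.6% (11.8% of moved regions), and on 2L it was 16.1% (3.57% of positions). With 1 peak per run it was 8.57% of 35 peaks. The interval of this share, 1.80 to 23.1, included the 3.58% of all positions. Of 236 recomputed values, 177 stayed within the interval of the value reported (for counts, within 1.5 times) and 59 moved outside it, and 0 changed from a clear excess to a deficit. Such a change could occur only for the excesses over moved regions and for the wild type MSL2 difference from flanks. Counts, lengths, spacing and shares could not show it, nor could differences whose reported interval included 0. The causes of these changes were not tested. No paired analysis was possible because each antibody and genotype has 1 library. The alternatives with 1 peak per run, without the run of 128 and all comparisons with flanks were chosen after seeing the data. Read depth, which sets the error of each ratio, is unknown.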
